A study of Homo sapiens with 208 samples.

Results

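The genes described here are CTNNB1, which encodes β-catenin, and 9 genes of the transcription complex that β-catenin builds in the nucleus. They were chosen by name, through the RefSeq accession that each array probe carries, and all 10 had a probe. The genes were LEF1, TCF7, TCF7L1 and TCF7L2 of the LEF/TCF family, the co-activators BCL9, BCL9L and PYGO2, the co-repressor TLE1 and the inhibitor CTNNBIP1. Of the 16961 genes with a probe, 13274 were bright enough to be tested. This group contributed 9 genes to the tests, since TCF7L2 was too dim.

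The cells were PC9, a human lung adenocarcinoma line that depends on a mutant EGFR and is sensitive to the EGFR kinase inhibitor gefitinib, and a gefitinib-resistant line made from it, called PC9M2 in the paper and PC9GRM2 in the sample labels and here. PC9GRM2 is 1 clone, selected under gefitinib, without MET amplification or the common second-site EGFR mutation, so it stands for 1 resistant clone and not for resistance in general. Both lines were starved of serum for 48 h and then followed under no treatment, 0.5 µM gefitinib, 100 ng/ml EGF, or EGF and gefitinib. RNA was taken at 26 time points, at 0 and 0.5 h and then each hour from 1 to 24 h, which gave 8 courses with 1 array per time point. With no replicate arrays, n counts time points, and the spread over time took the place of that between replicates. The p-values therefore measure the spread between time points of 1 series of cultures.

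In cells without a Wnt signal, a destruction complex of AXIN, APC and GSK3 marks free β-catenin for breakdown. When the complex is held back, β-catenin accumulates, enters the nucleus and binds LEF/TCF proteins, which sit on DNA but cannot activate genes by themselves. BCL9 or BCL9L then ties β-catenin to PYGO2, while TLE proteins silence the same sites when β-catenin is absent and CTNNBIP1, also known as ICAT, blocks β-catenin from binding LEF/TCF. β-catenin is regulated mainly as a protein and also serves in cell junctions, so its mRNA level is not a measure of its activity.

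LEF/TCF proteins recognise DNA with the core CTTTG, of which CTTTGAT and CTTTGTT are the high-affinity forms. These were looked for on both strands of 300-base windows around RefSeq gene starts (GRCh38.p14), which hold 250 bases before the start and 50 after it. The group had 12 such windows for 9 genes. CTTTGAT was in 0 of the 12 and in 2.62% of all 35116 windows, and CTTTGTT was in 2 of the 12 and in 5.2% of all. The bare core, which every longer match contains, was in 5 of the 12 and in 47.5% of all. The sequences printed are the 250 bases before the start of LEF1, the gene of the group with most of its variance between the lines, and of TCF7 at the second of its starts. These are the 2 measured LEF/TCF genes with the core. Capitals mark the core, which reads CAAAG on the strand printed. A match is a run of letters and not a measured binding site.
LEF1, chr4:108166302-108166551, minus strand: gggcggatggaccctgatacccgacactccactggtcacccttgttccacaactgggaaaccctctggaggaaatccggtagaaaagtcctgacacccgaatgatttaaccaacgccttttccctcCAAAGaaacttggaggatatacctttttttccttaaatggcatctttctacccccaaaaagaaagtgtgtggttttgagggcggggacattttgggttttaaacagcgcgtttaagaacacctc
TCF7, chr5:134123368-134123617, plus strand: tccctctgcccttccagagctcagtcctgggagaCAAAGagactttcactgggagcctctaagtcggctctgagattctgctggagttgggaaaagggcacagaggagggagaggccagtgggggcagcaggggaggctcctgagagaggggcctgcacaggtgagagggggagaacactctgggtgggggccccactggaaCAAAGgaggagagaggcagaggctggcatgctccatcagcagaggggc

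The arrays had between 24464 and 35938 features well above background (median 29879) and all lay in the quality range of the scanner software. Each slide carried the 4 treatments of 1 line at 1 time point. Arrays of the 2 lines had 0 slides and 0 scan days in common, so line and scan period cannot be told apart, whereas treatments were compared within slides. Of 9 lung epithelial markers, 7 were well above background on 52 or more of the 104 arrays of each line, EPCAM, CDH1 and 4 keratins among them on every array, while NKX2-1, the lung lineage factor, was above it on 9 and 4 of 104 arrays in PC9 and PC9GRM2. Fibroblast markers were above it on 52 or more arrays of a line in 0 of 5. T lymphocyte markers were so in 2 of 5 in PC9 and 0 of 5 in PC9GRM2, and endothelial markers in 2 of 3 in each line. Of the endothelial markers, VWF was above it on 104 and 104 of 104 arrays in PC9 and PC9GRM2. PECAM1 was above it on 103 and 104, and CDH5 on 18 and 16.

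A pair of arrays went against its labels. DUSP6, a phosphatase that ERK signaling induces, was lower with gefitinib at 26 of 26 time points in PC9 with and without EGF and in PC9GRM2 without EGF. In PC9GRM2 with EGF, it was lower at 25 of 26. At 0.5 h its log2 signal was 7.75 in the array labelled EGF and 12.53 in the array labelled EGF and gefitinib, whereas at 0 h the values were 11.98 and 7.51 and at 1 h 12.60 and 7.84. SPRY4, another ERK-induced gene, did the same at 0.5 h, with 5.28 and 10.28. In PC9GRM2 without EGF, SPRY4 was also lower with gefitinib at 25 of 26 time points, and that exception was not at 0.5 h. Away from 0.5 h, the highest DUSP6 signal of PC9GRM2 with gefitinib was 12.14 without EGF and 11.52 with EGF. The lowest signals without the drug were 12.13 and 11.98. Without EGF the ranges of PC9GRM2 thus overlapped for DUSP6, as they did for SPRY4. The arrays were kept under their labels, and the counts that rest on them are given without 0.5 h too.

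Signals are given as log2 of the scanner intensity after quantile normalization, and a difference of 1 on this scale is a factor of 2. Levels were compared within a probe only. The plot of levels shows that some genes of the complex were separated by line, one by gefitinib, and others by neither.

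**Figure D1:**
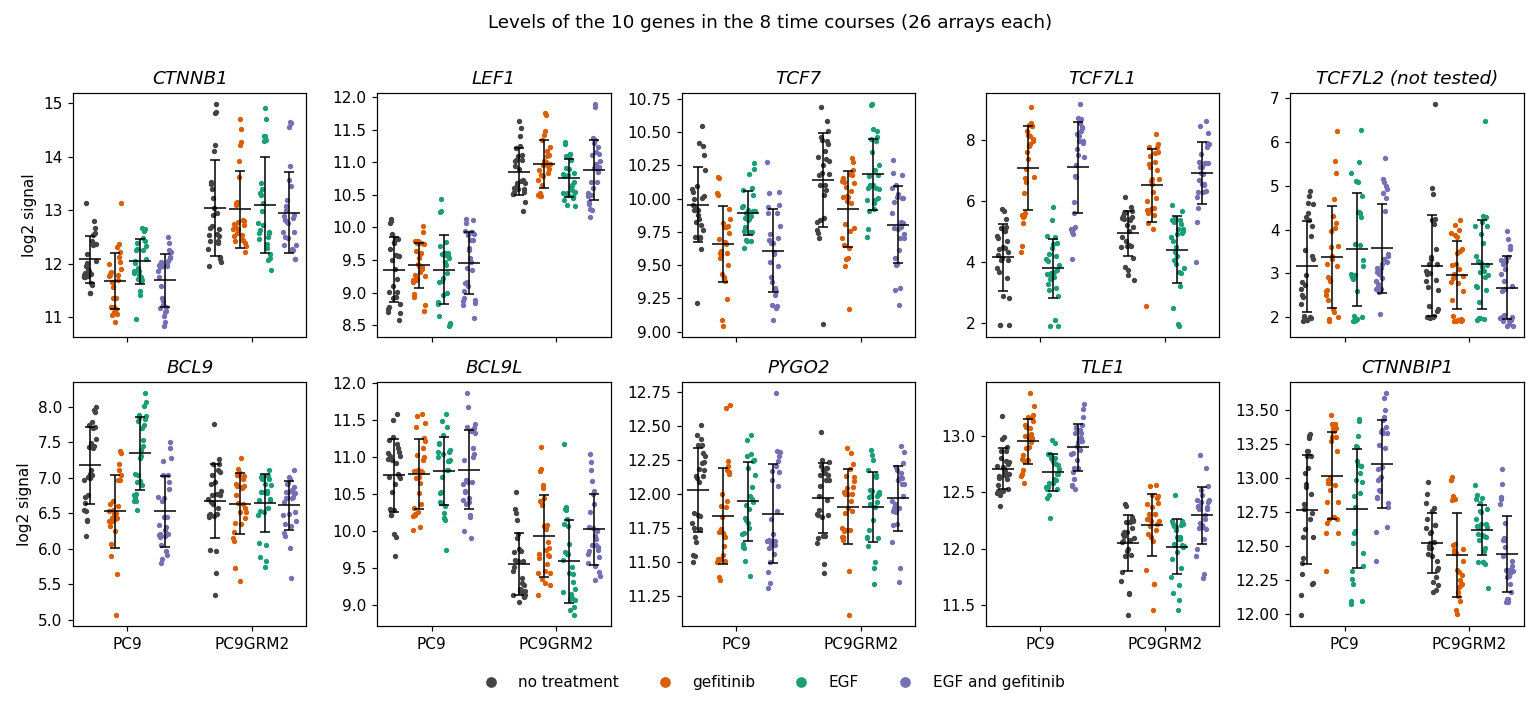
Log2 signal (quantile normalized intensity) of the 10 genes in the 8 courses, 1 point per array, with the mean and SD over n = 26 time points per course in black. LEF1 sits higher and TLE1 and BCL9L lower in PC9GRM2, TCF7L1 is higher in the 4 courses with gefitinib, and TCF7L2 stays near background.

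PC9GRM2 was set against PC9 hour by hour within each treatment to ask which parts of the complex differ in the resistant line. LEF1 and CTNNB1 were higher in PC9GRM2 under all 4 treatments, TLE1 and BCL9L were lower under all 4, and PYGO2 passed the test under none. Of all tested genes, 22% were higher and 25.9% lower under all 4 treatments, or 21.3% and 25% without 0.5 h. Of the 9 genes, 3 rose and 4 fell without treatment (limma, adjusted p under 0.05). In that comparison 68.1% of all tested genes passed, 30.3% higher and 37.8% lower, so the count for the group was near the background. Under gefitinib 3 were higher and 4 lower (background 64.7%, of which 29.9% higher and 34.8% lower). Under EGF 3 were higher and 3 lower (69.8%, with 32.1% and 37.7%), and under EGF and gefitinib 3 and 3 (67.7%, with 30.6% and 37.1%). The median difference of the 9 genes was -0.06 without treatment and 0.07 under gefitinib, beside -0.06 and -0.04 over all tested genes. Without 0.5 h the counts under EGF and under both agents were the same, 6 of 9 each, and no call of a gene changed there.

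β-catenin mRNA was abundant in both lines. In PC9 the CTNNB1 signal ran from 11.45 to 13.14 without treatment, with a median of 11.94, and in PC9GRM2 from 11.95 to 14.98, with a median of 12.68. Under gefitinib the lowest, median and highest values were 10.91, 11.74 and 13.14 in PC9 and 12.23, 12.73 and 14.71 in PC9GRM2. The ranges overlapped, and the upper tail of PC9GRM2 lay at 10 to 15 h. The mean difference between the lines was 0.95 without treatment (SE 0.22, limma adjusted p = 0.000322, higher at 20 of 26 time points), 1.34 under gefitinib (adjusted p = 2.22e-06, 25 of 26), 1.05 under EGF (adjusted p = 0.000105, 17 of 26) and 1.26 under EGF and gefitinib (adjusted p = 5.48e-06, 24 of 26).

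The size of the CTNNB1 difference depended on the hour. From 0 to 9 h it was 0.83 without treatment and 1.20 under gefitinib, from 10 to 15 h it was 2.70 and 3.10, and from 16 to 24 h it was -0.07 and 0.35. Change of the line difference with time, the interaction of line and time, held 38.1% of the variance of CTNNB1 over all arrays. Each line at each time point was 1 slide, so this share cannot be told apart from differences between slides. Line itself held 42.3%. The borders of the high stretch were also changes of scan day in PC9GRM2. The mean of the 4 treatments rose by 1.32 from 9 to 10 h, a step as large as that of 5.67% of all tested genes, and fell by 2.10 from 15 to 16 h, a step reached by 0.61% of genes. Over all genes, a median of 4.43% moved by at least 1 between neighbouring time points where the scan day changed in PC9GRM2 and 0.889% where it did not. Whether the scan day has a part in the rise was not tested.

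**Figure D2:**
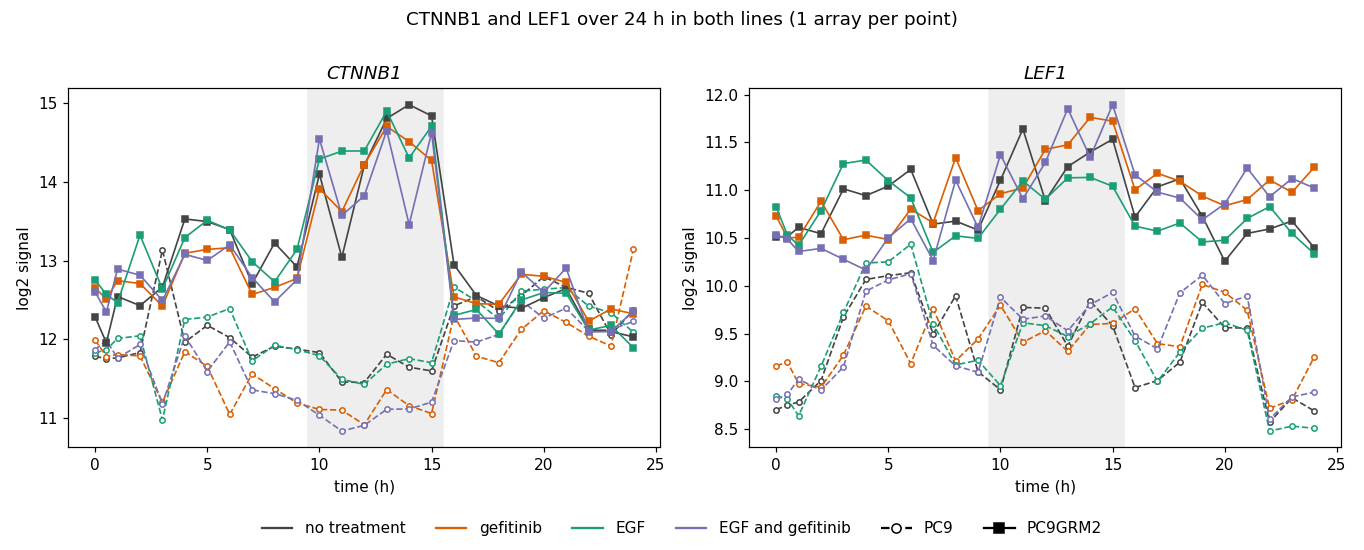
Log2 signal of CTNNB1 and LEF1 against time (h) in the 8 courses, 1 array per point, with 10 to 15 h shaded. CTNNB1 of PC9GRM2 rises in the shaded stretch under all 4 treatments, whose arrays share a slide and a scan day at each time point. By this probe CTNNB1 of PC9GRM2 then falls back towards PC9, to the PC9 level without treatment but not fully under gefitinib. LEF1 of PC9GRM2 stays above PC9 throughout.

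Without 10 to 15 h, a choice made after the data were seen, the CTNNB1 difference was 0.43 without treatment (limma adjusted p = 0.0104), 0.82 under gefitinib (adjusted p = 1.22e-05), 0.51 under EGF (adjusted p = 0.00366) and 0.72 under EGF and gefitinib (adjusted p = 9.77e-06). With the variance inflated for the likeness of neighbouring time points, the call was lost without treatment (adjusted p = 0.131) and under EGF (adjusted p = 0.133) and held under gefitinib (adjusted p = 0.0237) and under both agents (adjusted p = 0.0332). Both lost calls also missed the threshold in the last 13 time points (adjusted p = 0.0529 and 0.0786), as did that without treatment in time points 3 h apart (adjusted p = 0.0707). The array has another CTNNB1 probe, which followed the first with a correlation of 0.844 over all arrays. By that probe the lines differed by 1.30 without treatment and 1.49 under gefitinib, and at 16 to 24 h still by 0.89 and 0.99. For the late hours the probes thus disagreed on whether the untreated lines differed and, under gefitinib, on the size of the difference.

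LEF1, the LEF/TCF factor best known as both a partner and a target of β-catenin, separated the lines most clearly in the group. In PC9 its signal ran from 8.57 to 10.14 without treatment, with a median of 9.43, and in PC9GRM2 from 10.26 to 11.64, with a median of 10.72. Under gefitinib it ran from 8.72 to 10.01 in PC9 (median 9.40) and from 10.48 to 11.76 in PC9GRM2 (median 10.95). Every array of PC9GRM2 was above every array of PC9 in these 2 comparisons, and under EGF and gefitinib too, while under EGF alone the highest PC9 value, 10.44, passed the lowest of PC9GRM2, 10.33. The difference was 1.50 without treatment (SE 0.09, limma adjusted p = 1.22e-14), a 2.83-fold higher signal, and 1.56, 1.42 and 1.43 under gefitinib, EGF and both (adjusted p = 2.85e-14, 1.34e-14 and 3e-12). It was positive at 26 of 26 time points each time.

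Line held 75.6% of the variance of LEF1 and gefitinib 0.374%. Without 10 to 15 h the LEF1 difference was 1.42 with no treatment and 1.47 under gefitinib. A second LEF1 probe was well above background on only 1 to 6 of 26 arrays per course and did not follow the first (correlation 0.188 over all arrays). Its line differences were 0.44, 0.17, 0.33 and 0.37 under the 4 treatments in the same order. With the mean of both probes the difference without treatment was 0.97 (limma adjusted p = 4.07e-08), and under gefitinib 0.87. The size of the LEF1 difference therefore rests on 1 probe.

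The other LEF/TCF factors differed less. TCF7, known for its role in T cells and for isoforms with and without the β-catenin binding part, was between 9.21 and 10.54 in untreated PC9 (median 9.92) and between 9.06 and 10.69 in untreated PC9GRM2 (median 10.19). These ranges overlapped almost fully. The difference was 0.19 without treatment (limma adjusted p = 0.0842), and it passed the test under gefitinib (0.26, adjusted p = 0.00433), EGF (0.29, adjusted p = 0.000439) and both (0.20, adjusted p = 0.00918). With scan day as a random block the adjusted p under gefitinib was 0.0927 and under both agents 0.109.

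TCF7L1, which mostly acts as a repressor of LEF/TCF sites, was higher in PC9GRM2 by 0.79 without treatment (limma adjusted p = 0.00199), which shrank to 0.07 with normexp background correction (adjusted p = 0.0464), and lower by a difference of -0.57 under gefitinib (adjusted p = 0.0429). The latter was lost with scan day as a block (adjusted p = 0.251), without 10 to 15 h (-0.15, adjusted p = 0.599) and in other settings. The difference of 0.62 under EGF (adjusted p = 0.0656) and that of -0.19 under both agents (adjusted p = 0.481) did not pass. TCF7L2, the main LEF/TCF factor of the gut, was represented by 2 probes that were well above background on 0 to 9 of 26 arrays per course. Its mRNA was therefore not measurable at the signal of these arrays in either line.

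Among the co-activators, BCL9L was lower in PC9GRM2. Its signal ran from 9.66 to 11.58 in untreated PC9 (median 10.84) and from 9.03 to 10.52 in untreated PC9GRM2 (median 9.48), so that the ranges overlapped at their ends. The difference was -1.20 without treatment (limma adjusted p = 2.35e-09, lower at 23 of 26 time points), -0.84 under gefitinib, -1.22 under EGF and -0.81 under both, all past the test. The difference under gefitinib was smaller in the first 13 time points (-0.45, adjusted p = 0.0539). BCL9, its close relative, was lower in PC9GRM2 by -0.50 without treatment (adjusted p = 0.001) and by -0.69 under EGF (adjusted p = 7.46e-07), and gave 0.11 and 0.08 in the 2 comparisons with gefitinib, neither of which passed. The BCL9 difference without treatment was -0.07 in the first 13 time points (adjusted p = 0.671) and -0.94 in the last 13 (adjusted p = 5.42e-05).

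PYGO2, which reads methylated histone tails for the complex, had differences of -0.06, 0.07, -0.04 and 0.11 without treatment and under gefitinib, EGF and both. Their 95% intervals were -0.19 to 0.08, -0.08 to 0.21, -0.17 to 0.10 and -0.02 to 0.25. The widest bound thus left room for a difference of 0.25 in log2 signal. Its variance lay mostly in time (61%).

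On the repressor side, TLE1 was lower in PC9GRM2 at 26 of 26 time points under each treatment. Untreated PC9 lay between 12.38 and 13.18 (median 12.70) and untreated PC9GRM2 between 11.41 and 12.40 (median 12.10), and under gefitinib the ranges did not overlap. The differences were -0.66 (SE 0.07, limma adjusted p = 8.42e-10), -0.75, -0.66 and -0.61 in the usual order. CTNNBIP1 was lower under gefitinib by -0.59 (adjusted p = 4.42e-05) and under both agents by -0.66 (adjusted p = 2.94e-06). The former was -0.31 in the first 13 time points (adjusted p = 0.111). With the variance inflated for the likeness of neighbouring time points, both calls were lost (adjusted p = 0.0984 and 0.0747). Without treatment its difference of -0.25 (adjusted p = 0.0283) was lost without 10 to 15 h (-0.11, adjusted p = 0.378) and with scan day as a block (adjusted p = 0.18), and that of -0.16 under EGF did not pass.

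**Figure D3:**
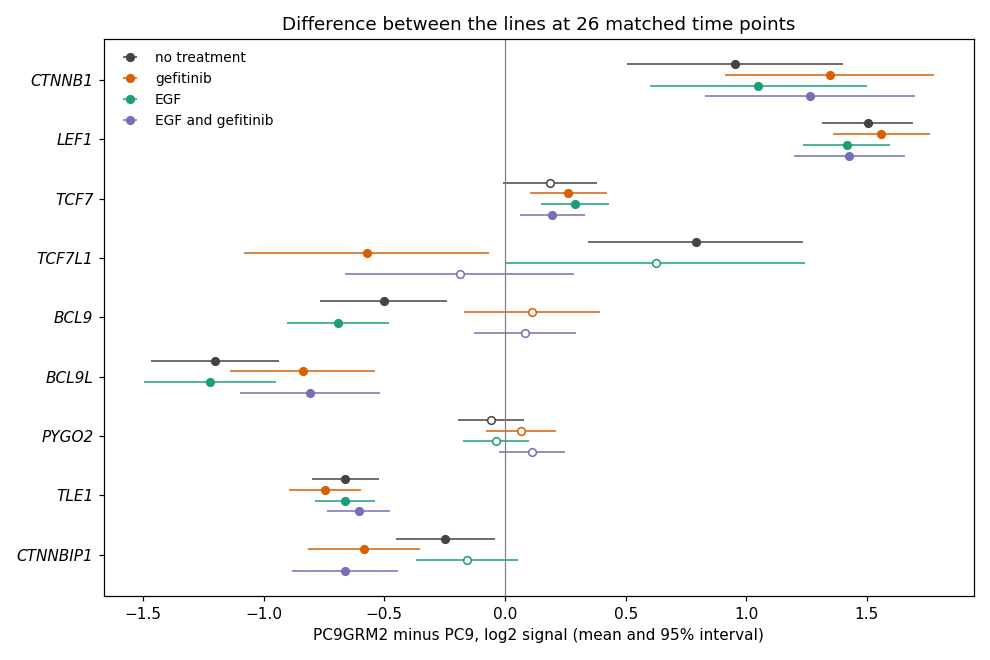
Mean difference in log2 signal, PC9GRM2 minus PC9, for the 9 tested genes under each treatment, with 95% intervals over 26 time points, filled where the gene passed the test. LEF1 and CTNNB1 lie to the right of 0 and TLE1 and BCL9L to the left under all 4 treatments, while PYGO2 spans 0.

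Seen as an order of the 8 course means, LEF1 and CTNNB1 had the 4 PC9GRM2 courses on top and TLE1 and BCL9L the 4 PC9 courses. In each of these genes the gap between the fourth and the fifth course exceeded the larger SD of the neighbours, with 1.31 for LEF1, 0.87 for CTNNB1, 0.38 for TLE1 and 0.73 for BCL9L. TCF7L1 was ordered by gefitinib instead, with a gap of 1.57 between the lowest course with the drug and the highest without it. All other neighbouring courses of the 9 tested genes differed by no more than their SD.

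Gefitinib was compared with its absence at matched time points within each line to ask whether blocking EGFR moves the complex. TCF7L1 rose in both lines with and without EGF, TLE1 rose and TCF7 fell slightly in all 4 comparisons, and LEF1 passed the test in none. In PC9 3 genes rose and 4 fell without EGF (background 72.2% of tested genes, 34.8% higher and 37.4% lower), and 3 and 3 with EGF (78.9%, with 38.9% and 40%). In PC9GRM2 3 rose and 1 fell without EGF (66.5%, with 32.5% and 34%), and 3 and 2 with EGF (74.4%, with 36.4% and 38%). These contrasts use the same arrays as the comparison of the lines.

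TCF7L1 moved furthest. In PC9 its lowest, median and highest signals were 1.91, 4.38 and 5.73 without treatment and 4.31, 7.50 and 9.11 with gefitinib. In PC9GRM2 they were 3.40, 5.18 and 6.12 without treatment and 2.56, 6.68 and 8.20 with gefitinib. The probe was well above background on 16 and 21 of 26 untreated arrays of PC9 and PC9GRM2 and on 26 and 25 with gefitinib, so the untreated level is near the lower limit of the measurement. The rise was 2.93 in PC9 (SE 0.28, limma adjusted p = 3.71e-10, 25 of 26 time points), a 7.64-fold higher signal, and 1.57 in PC9GRM2 (SE 0.22, adjusted p = 4.54e-07, 24 of 26). In the presence of EGF the log2 difference was 3.33 in PC9 and 2.52 in PC9GRM2, and without the 0.5 h arrays the latter was 2.62 (adjusted p = 1.81e-10). Under EGF alone the probe was well above background on only 9 of 26 arrays of PC9 and 18 of PC9GRM2, so the size of these differences, that of PC9 above all, rests on values at or near background. Normexp background correction, which lifts dim signals by an offset of 50, left rises of 0.74 in PC9 and 0.41 in PC9GRM2 without EGF and of 0.81 and 0.59 with it, still past the test. The direction was kept and the size was not.

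The TCF7L1 difference between courses with and without gefitinib was larger late than early. In PC9 the mean effect of gefitinib was 0.81 from 0 to 4 h and 4.39 from 20 to 24 h, and in PC9GRM2 0.31 and 2.64. In the courses with EGF it went from 0.94 to 4.63 and from 1.26 to 2.91, where the 1.26 was 1.52 without 0.5 h. Without EGF, the signal with gefitinib was highest at 18 h in PC9 (9.11) and 19 h in PC9GRM2 (8.20). By 24 h it was 6.79 and 6.72, and the untreated signal was 2.80 and 3.40. The late differences thus rest in part on untreated values near the lower limit of the measurement. At 0 h the TCF7L1 signal with gefitinib was 4.31 in PC9 and 2.56 in PC9GRM2, the lowest value of both courses. These 0 h arrays are not a baseline without the drug. DUSP6 at 0 h was already lower with gefitinib, at 9.32 beside 12.80 in PC9 and 7.75 beside 12.13 in PC9GRM2. The sample labels do not say when the drug was added, so the hours given are those of the labels.

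**Figure D4:**
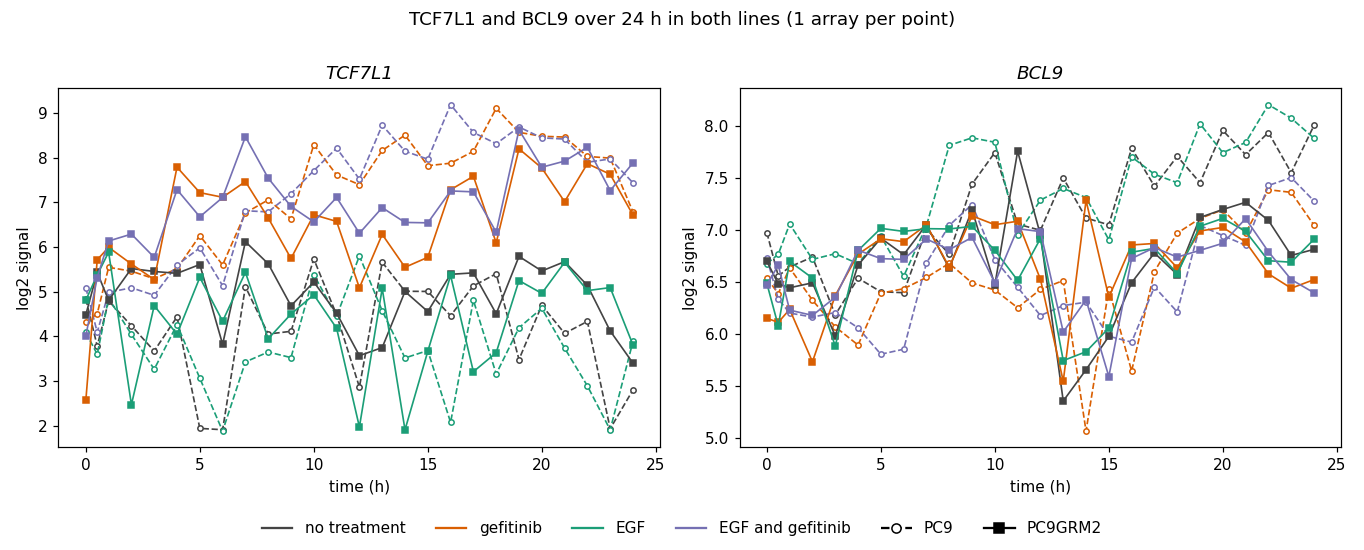
Log2 signal of TCF7L1 and BCL9 against time (h) in the 8 courses, 1 array per point. With gefitinib TCF7L1 climbs in both lines and further in PC9, and without EGF it is highest at 18 h in PC9 and 19 h in PC9GRM2. BCL9 of PC9 lies lower with gefitinib than without it while the PC9GRM2 courses overlap.

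BCL9 fell with gefitinib in PC9. Its signal ran from 6.18 to 8.00 without treatment (median 7.08) and from 5.06 to 7.38 with the drug (median 6.50). The fall was -0.65 without EGF (limma adjusted p = 4.16e-06, 25 of 26 time points) and -0.82 with EGF (adjusted p = 4.07e-11), and -0.26 and -0.32 with normexp. In PC9GRM2 both differences were -0.04 and did not pass. CTNNB1 fell in PC9 by -0.41 (adjusted p = 0.000319) and, with EGF, by -0.35 (adjusted p = 3.06e-06), and gave -0.02 and -0.14 in PC9GRM2, not past the test. The second CTNNB1 probe gave -0.19 in PC9 in both comparisons.

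The remaining effects were small. TLE1 rose by 0.24 and 0.22 in PC9 without and with EGF, and by 0.16 and 0.28 in PC9GRM2. TCF7 fell, with differences of -0.30 and -0.29 in PC9 and -0.22 and -0.38 in PC9GRM2, of which that of -0.22 was lost with scan day as a block (limma adjusted p = 0.0895). CTNNBIP1 rose in PC9 by 0.25 and 0.33 and was lower in PC9GRM2 with EGF by -0.18 (adjusted p = 0.0023), which was lost without 10 to 15 h (adjusted p = 0.0899).

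BCL9L rose in PC9GRM2 by 0.38 and 0.43 and gave 0.02 and 0.02 in PC9. PYGO2 was lower in PC9 without EGF by -0.19 (limma adjusted p = 0.00643), a call lost without 10 to 15 h (adjusted p = 0.0994), and passed in no other comparison. For LEF1 the gefitinib effects were 0.06, 0.11, 0.12 and 0.12, none past the test. Without 0.5 h, where 2 arrays went against their labels, the same 5 genes passed in PC9GRM2 with EGF, with TCF7 at -0.40, BCL9L at 0.43, TLE1 at 0.30 and CTNNBIP1 at -0.19.

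**Figure D5:**
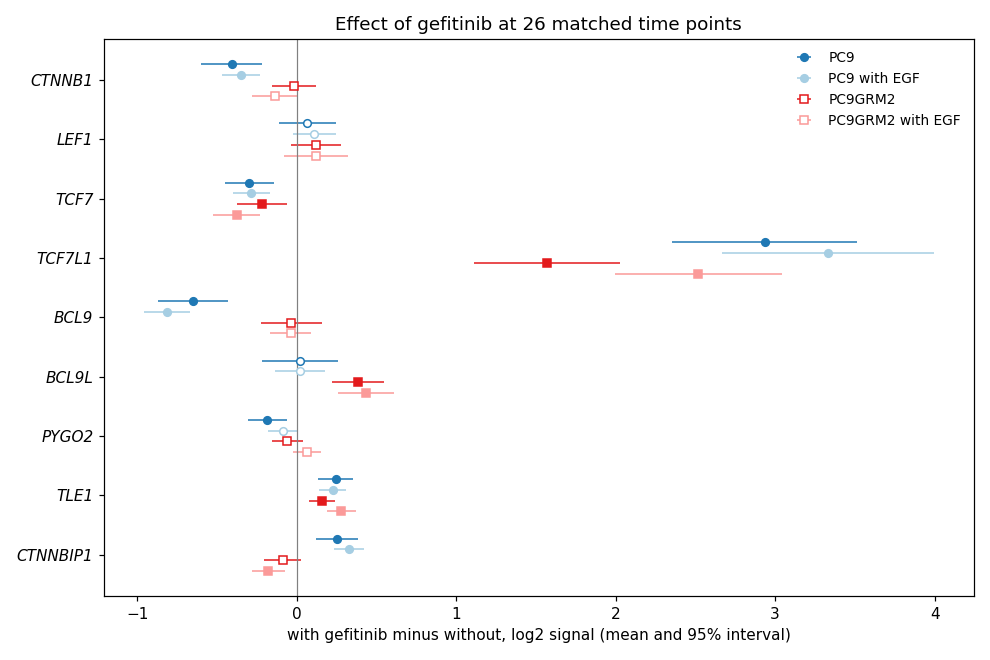
Mean difference in log2 signal, gefitinib minus its absence, for the 9 tested genes in each line without and with EGF, with 95% intervals over 26 time points, filled where the gene passed the test. TCF7L1 stands far to the right in all 4 comparisons and BCL9 to the left in PC9 alone.

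The gefitinib responses of the lines, without EGF, were then compared directly. Of the 9 genes, 4 responded differently, 2 in each direction, where 34.1% of all tested genes did. TCF7L1 rose less in PC9GRM2 by -1.36 (SE 0.21, limma adjusted p = 8.33e-06), with a smaller response at 23 of 26 time points, and by -0.33 with normexp (adjusted p = 0.00389). This combines the line difference of 0.79 without treatment, where the signal was near background, and that of -0.57 under gefitinib. BCL9 differed by 0.61 (adjusted p = 0.00606) and CTNNB1 by 0.39 (adjusted p = 0.00156), each higher at 21 of 26, so that the falls in PC9 were larger than the changes in PC9GRM2. The BCL9 difference was lost with the variance inflated for neighbouring time points (adjusted p = 0.0664) and in the first 13 time points (0.31, adjusted p = 0.282), and without 10 to 15 h it was 0.40 (adjusted p = 0.0442). Unpaired, with no block for the time point, the CTNNB1 and CTNNBIP1 calls were lost. In the first 13 time points, and in time points 3 h apart, no higher call was left, so that of CTNNB1 was lost too. CTNNBIP1 differed by -0.34 (adjusted p = 0.000665, lower at 22 of 26). For LEF1 the difference was 0.06 (adjusted p = 0.686) and for BCL9L 0.36 (adjusted p = 0.0544).

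EGF was compared with its absence in the same way, and the counts for the group were small and near the background. In PC9 1 of 9 passed, where 25.6% of all tested genes did, 11.2% higher and 14.3% lower. It was BCL9, higher by 0.17 (limma adjusted p = 0.0432), and the call was lost when 0.5 h or 10 to 15 h was left out. With gefitinib present, EGF changed 0 of 9 in PC9 by limma (background 0.0452%), with 0 at an unadjusted p under 0.05 and 0 by the methods' t-test. In PC9GRM2 EGF alone changed 0 of 9 by limma (background 9.06%, 4.15% higher and 4.91% lower), with 2 at an unadjusted p under 0.05 and 0 by the methods' t-test, and without 0.5 h these limma counts were again 0 and 2. With gefitinib 1 passed (3.13%, 0.979% higher and 2.15% lower), which was TCF7L1 at 0.41 (adjusted p = 0.04). Without 0.5 h it was 0.44 (adjusted p = 0.0151) and TLE1 passed as well at 0.10 (adjusted p = 0.038), and without 10 to 15 h the TCF7L1 call was lost (adjusted p = 0.204).

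Each course was also tested for change over time by a smooth curve, an F-test in limma. Over the 8 courses and 9 genes, 48 of 72 tests passed, 45 did without 0.5 h, and 30 did with scan day as a random block. In the PC9GRM2 courses that hold the 0.5 h arrays in question, 2 of 9 genes passed under EGF and 5 under both agents, and 3 and 5 without 0.5 h. Per course, 5 to 9 of 9 genes passed in PC9 (background 66.5%, 77.8%, 78.8% and 83.1% without treatment and under gefitinib, EGF and both) and 2 to 7 in PC9GRM2 (67.4%, 63.6%, 74.9% and 67.6%). CTNNB1 passed in 8 of 8 courses and in 7 with the block. LEF1 passed in 7 and in 5 with the block, and TCF7 and TLE1 in 2 and 3 and in 0 with it.

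The fitted curves of CTNNBIP1 differed in shape between the lines, which was not tested. In untreated PC9 it was lowest at 0 h, at 11.99, and its fitted curve peaked at 15 h after a range of 1.12. In untreated PC9GRM2 the fitted curve was highest at 0 h and lowest at 24 h, with a range of 0.59, but this change was lost with scan day as a random block (limma adjusted p = 0.0339 before and 0.212 with it). The interaction of line and time held 41% of the variance of CTNNBIP1, a share that cannot be told apart from differences between slides. The fitted curve of BCL9 was highest at 24 h in all 4 PC9 courses, with ranges of 1.43, 1.26, 1.48 and 1.46. Its highest measured values were at 24, 22, 22 and 23 h without treatment and under gefitinib, EGF and both. The change of BCL9 passed the test in these 4 courses and in 1 of the 4 PC9GRM2 courses. With scan day as a block 2 of these 5 calls were left.

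The wider pathway was counted from lists of genes set by their known roles, with earlier results of these data known. The counts stand beside the shares of all tested genes given above, 30.3% higher and 37.8% lower without treatment and 29.9% and 34.8% under gefitinib. Of 24 tested nuclear partners of the complex, 7 were higher and 7 lower in untreated PC9GRM2, and 10 and 6 under gefitinib. EP300, a histone acetylase that β-catenin recruits, was lower by -1.33 and -1.44, and SOX17, an antagonist of β-catenin, by -1.46 and -1.42. SOX7, a related factor that also antagonises β-catenin, went the other way and was higher by 0.51 (limma adjusted p = 0.0192) and 1.06 (adjusted p = 1.69e-06). RUVBL1, an ATPase partner of β-catenin, was higher under gefitinib by 0.84 at 26 of 26 time points, and TLE3, a co-repressor related to TLE1, was higher without treatment by 0.56.

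Of 19 tested target genes of β-catenin, 5 were higher and 7 lower in untreated PC9GRM2, and 9 and 5 under gefitinib. DKK1, a secreted Wnt antagonist that Wnt signaling induces, was higher by 1.69 and 1.65, and MMP7, a matrix protease, lower by -1.78 and -1.32. SP5, a transcription factor induced by Wnt signaling, was lower by -1.23 and -1.34. BIRC5, which encodes survivin, was higher without treatment by 0.95, and BMP4, a secreted ligand, under gefitinib by 0.95. AXIN2, the most general target and a part of the destruction complex, did not differ past the test between the lines, with -0.01 without treatment (limma adjusted p = 0.969), 0.14 under gefitinib, 0.13 under EGF and 0.24 under both. Gefitinib raised AXIN2 at 26 of 26 time points of either line, with a mean rise of 2.82 for PC9 (limma adjusted p = 8.42e-12) and 2.96 for PC9GRM2 (limma adjusted p = 7.5e-10). The responses of the lines differed by 0.15 (adjusted p = 0.438). With EGF the AXIN2 difference from no treatment was -0.75 in PC9 (limma adjusted p = 3.28e-08) and, in PC9GRM2, -0.61 (adjusted p = 2.46e-06), or -0.65 without 0.5 h. Without 0.5 h the line differences of AXIN2 were 0.08 under EGF and 0.26 under both agents, again not past the test. By quantitative RT-PCR at steady state, the paper reported higher AXIN2 mRNA in the resistant line. The arrays are of cells starved for 48 h, so the 2 measurements differ in assay and in the state of the cells.

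At the junctions, where β-catenin links cadherins to the cytoskeleton, 1 of 6 tested genes was higher and 2 were lower in PC9GRM2, both without treatment and under gefitinib. The higher gene was CDH3, P-cadherin, without treatment (0.32) and CTNNAL1, a relative of α-catenin, under gefitinib (0.89). JUP, the β-catenin relative plakoglobin, was lower by -0.54 and -0.70, and CTNNA1, α-catenin, by -0.49 and -0.31. CDH1, E-cadherin, differed by 0.08 and -0.10, neither past the test. In the destruction complex 4 of 7 were higher and 1 lower in both comparisons. Under EGF 2 were higher and 2 lower, with and without 0.5 h (background 32.1% and 37.7%). GSK3A was higher by 0.71 and 0.69 at 26 of 26 time points, and GSK3B, the related kinase, lower by -1.22 and -0.71. BTRC, which recognises marked β-catenin for breakdown, was higher without treatment by 0.57, and AMER1, a binding partner of the complex, under gefitinib by 0.77. The 2 GSK3 genes thus moved in opposite directions at the mRNA level.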

How the data were processed

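Each RNA sample was labelled with Cy3 and hybridized to 1 Agilent 44K array (41000 probes, 45015 features). The authors deposited scanner intensities (Feature Extraction 10.5.1.1, local background subtracted) and a table of quantile normalized intensities of the same arrays. Here the scanner intensities were quantile normalized over all features, raised to at least 1 and converted to log2. Spots marked as outliers were left out, and spots of 1 probe were averaged. Of the probes, 24794 matched 1 RefSeq symbol by accession. Where a gene had several probes, the most variable was taken, as in the paper's methods. Genes were tested if this probe stood well above background on 13 or more of the 26 arrays in any course. The number of arrays limits the precision. Differences at matched time points were tested with limma 3.58.1 in R 4.3.3 (lmFit and eBayes, two-sided, Benjamini-Hochberg over 13274 genes, 0.05), and change over time with a natural cubic spline of 4 degrees of freedom. Pairing by time point follows the paper's methods. Neighbouring differences were alike in the line comparisons (median lag-1 autocorrelation 0.37 to 0.51). Named genes are the 10 of the complex, AXIN2, CDH1 and, per list and line comparison, up to 2 of the largest differences each way among called, well-measured genes, and for 5 genes of the complex the 3 most correlated tested genes. Markers came from fixed cell type lists. DUSP6 and SPRY4, and the markers singled out, were named after their values were seen. The genes and lists were chosen with earlier results of these data known. CARM1, COL1A1 and CD5 had no probe. Scripts were tested on simulated data. Alternatives were other scalings, background correction, probe choices, filters, tests and subsets of time points. The authors' array files name an older genome build than the sequences printed, so no array coordinates are given.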

Additional observations from a re-analysis of the deposited data

Results flagged for a closer look

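Within the group, 4 genes responded to gefitinib differently in the 2 lines by the test of the difference itself (limma over 26 matched time points, PC9GRM2 minus PC9). The differences of the responses were 0.391 for CTNNB1 (adjusted p = 0.00156), -1.36 for TCF7L1 (adjusted p = 8.33e-06), 0.613 for BCL9 (adjusted p = 0.00606) and -0.339 for CTNNBIP1 (adjusted p = 0.000665). In the lines themselves gefitinib moved CTNNB1 by -0.41 in PC9 and -0.02 in PC9GRM2, TCF7L1 by 2.93 and 1.57, BCL9 by -0.65 and -0.04, and CTNNBIP1 by 0.25 and -0.09. The second CTNNB1 probe gave a difference of responses of 0.19, higher at 16 of 26 time points. The CTNNB1 and BCL9 calls were lost in the first 13 time points and in time points 3 h apart. For TCF7L1 the untreated values were near background.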

How the results depend on the processing

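Over 189 results for single genes, the alternatives gave 3564 values, of which 3218 kept direction and side of the threshold, 72 changed sign but were called on neither side, 207 lost the call, 64 gained it and 3 reversed. The line differences of LEF1 and the gefitinib rises of TCF7L1 passed under all 4 conditions in all settings run, and those of TLE1 in all but the tests for a difference of at least 1 and for higher in PC9GRM2. The deposited table of normalized intensities changed 0 calls. Of 9 genes, the count that passed fell when a difference of at least 1 was asked for, to 2, 2, 3 and 2 in the line comparisons without treatment and under gefitinib, EGF and both, to 1 in each gefitinib comparison, to 1 for the difference of responses, to 0 for EGF in PC9 and for EGF with gefitinib in PC9GRM2, and to 30 of 72 for change over time. The one-sided test for higher in PC9GRM2, which cannot call a fall, gave 3 in each line comparison. Time points 3 h apart, with fewer values, gave 3 for the lines without treatment, 4 for gefitinib in PC9, 1 for the difference of responses and 0 for EGF in PC9. The first 13 time points gave 4 for the lines under gefitinib, 2 and 3 for gefitinib in PC9GRM2 without and with EGF, 1 for the difference of responses, and 0 for EGF in PC9 and for EGF with gefitinib in PC9GRM2, as the last 13 did for both. Treating the time points as unpaired, with no replicate block, gave 2 for the difference of responses, where CTNNB1 (adjusted p = 0.35) and CTNNBIP1 (adjusted p = 0.0564) were lost, and 0 for both EGF comparisons. EGF in PC9 gave 0 with no filter, without 0.5 h and without 10 to 15 h. EGF with gefitinib in PC9GRM2 gave 0 with 75th percentile scaling, a floor of 16, no filter, the 0 h pair left out, 10 to 15 h left out, inflated variance and the methods' t-test, and 2 without 0.5 h. Leaving out 0.5 h or 10 to 15 h was chosen after the data were seen. Scan day as a random block gave 30 of 72 for change over time. The 3 reversals were CTNNBIP1 between untreated lines (0.0239 over the first 13 time points), TCF7L1 between lines under gefitinib (0.12 over the same) and BCL9 with gefitinib and EGF in PC9GRM2 (0.14 with 75th percentile scaling, called there). The 75th percentile scaling moved the median of all genes by at most 0.08. Where no construction is named, the cause was not tested. The signal over background limits TCF7L2 and untreated TCF7L1.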

Other observations

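For 5 genes of the complex the tested genes with the most similar signal over all arrays were looked up by Pearson correlation of log2 signals. The arrays share their slides, scan days and lines, and the values are a description. Nearest to LEF1 were HDHD2 (0.932), FBXO9 (0.92) and RPS6KA3 (0.919), and nearest to TLE1 were FBLN1 (0.909), PGGHG (0.905) and TGFBR3 (0.885). Nearest to CTNNB1 were AAGAB (0.857), GTF2E1 (0.837) and MAX (0.818), to TCF7L1 SORL1 (0.878), CRIP2 (0.864) and FGFR1 (0.862), and to TCF7 DNPEP (0.814), RRBP1 (0.789) and TMEM38A (0.786).

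After subtraction of each course mean, which takes out the differences between lines and treatments, other genes came first for CTNNB1, namely MEAF6 (0.83), TOMM22 (0.764) and NPTN (0.754). For LEF1 they were PROSER1 (0.761), AHCYL2 (0.756) and HDHD2 (0.748), so HDHD2 was among the nearest 3 on both scales. CTNNB1 and LEF1 correlated with each other at 0.669 over all arrays and at 0.303 after subtraction of the course means.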
